A study of Mus musculus with 7 samples.

Results

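Cytosolic ribosomal protein genes are described here in the apical myocardium of NSG-DR1 mice with and without transferred human CD4+ T cells. They were taken as the protein-coding rows of the count table whose symbol is Rpl or Rps followed by a number, with an optional a, x or l and a further number. This rule found 34 of 20343 genes, 19 of the large and 15 of the small ribosomal subunit, and it used no measured value. The table holds chromosomes 1 to 7 and the start of chromosome 8, so members of the family that lie elsewhere are not analysed here.

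Polyadenylated RNA was sequenced from 7 hearts. All mice were of the strain labelled NSG-DRB1*0101, an immunodeficient background with a human HLA-DR1 class II gene. Control mice (n = 4) were left untreated, so they received no cells of any kind, and transferred mice (n = 3) were given human CD4+ T cells 6 weeks before collection. Ages are not given in the sources used here, and neither are the number of T cells or their donors.

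A ribosome is built from ribosomal RNA and a set of ribosomal proteins, nearly all of which sit once in their subunit. Cells make these proteins in matched amounts, from highly abundant and mostly short messenger RNAs. Most of these messengers begin with a cytosine followed by a run of pyrimidines, the terminal oligopyrimidine (TOP) element, through which mTOR and the RNA-binding protein Larp1 control their translation. In the heart, ribosome content is known to grow with hypertrophy of the muscle.

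The start sites of selected members are shown because the TOP element is the feature of sequence by which this family is known. Of the 34 members, 26 had an entry in the RefSeq promoter table (GRCm38.p6). Each line gives 15 bases before and 15 bases from an annotated start site, 5′ to 3′ on the gene's strand. Capitals mark the longest run of a C followed by at least 4 bases that are C or T, and the first such run where several are equally long, as in Rpl22. The first 3 have the highest log2 fold changes among members with such a run, Rps6 encodes the classical S6 kinase substrate, the next 4 have low fold changes or form the paralogous pair, and the last 2 have high fold changes and no run. The starts shown for Rpl18 and Rpl5, at 45718071 and 107900528, lie inside the gene's bounds and not at its 5′ end.
Rpl12 (chr2:32961697-32961726, plus strand): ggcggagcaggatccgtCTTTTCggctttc
Rps21 (chr2:180257364-180257393, plus strand): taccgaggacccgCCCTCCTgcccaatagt
Rps27 (chr3:90213634-90213663, minus strand): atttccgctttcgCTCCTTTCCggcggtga
Rps6 (chr4:86857353-86857382, minus strand): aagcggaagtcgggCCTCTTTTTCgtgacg
Rpl28 (chr7:4792950-4792979, plus strand): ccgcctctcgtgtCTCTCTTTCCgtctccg
Rpl18 (chr7:45718056-45718085, plus strand): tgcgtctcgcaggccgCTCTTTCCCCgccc
Rpl22 (chr4:152324421-152324450, plus strand): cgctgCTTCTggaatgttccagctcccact
Rpl22l1 (chr3:28805493-28805522, plus strand): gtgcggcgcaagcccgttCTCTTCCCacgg
Rpl9 (chr5:65391417-65391446, minus strand): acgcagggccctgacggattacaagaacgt
Rpl5 (chr5:107900513-107900542, plus strand): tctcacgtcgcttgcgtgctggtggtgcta

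Within this window of 30 bases the run was found at 20 of 31 annotated starts of members (64.5%), against 11948 of 32851 starts of all genes in the promoter table (36.4%). On the opposite strand the same run was found at 9 of 31 starts of members (29.03%) and at 40.8% of all starts. At least 1 start held the run in 19 of the 26 members. The 7 members without it were Rpl5, Rpl9, Rpl11, Rpl37a, Rps3, Rps3a1 and Rps13. Their log2 fold changes ranged from 0.11 to 0.29 with a median of 0.21, and the median of the 19 members with a run was 0.18. A run could lie anywhere in the window, so these are not counts of messengers that begin with a TOP element. In Rps15a, Rpl31, Rps16, Rpl6 and the start of Rpl22 shown above, the run ended before the start site. Rps19 held a run only at an annotated start inside the gene, at position 24884913.

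Ribosomal protein messengers were abundant in every heart. Summed over all 34 members they took 1.79%, 1.84%, 1.83% and 1.67% of the counts of control hearts 1 to 4. In transferred hearts 1 to 3 they took 2.09%, 2.20% and 1.86%. The groups did not overlap on this measure, but transferred heart 3 lay next to the control hearts.

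Both subunits showed this order of the hearts. Large subunit genes held 0.962%, 0.985%, 0.985% and 0.889% of the counts in control hearts, a mean of 0.955% ± 0.0456 (SD, n = 4). In transferred hearts they held 1.12%, 1.17% and 0.988%, a mean of 1.09% ± 0.0938 (SD, n = 3). Small subunit genes held 0.8286%, 0.854%, 0.847% and 0.777% in control hearts, with a mean of 0.827% ± 0.0349 (SD, n = 4). Their transferred shares were 0.970%, 1.03% and 0.873%, with a mean of 0.957% ± 0.0779 (SD, n = 3). The transferred mean was thus 1.14 times the control mean for the large and 1.16 times for the small subunit, and these sums carry no test.

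The separation of the sums depended on the scaling. With TMM scaling, which sets libraries level on most genes rather than on their totals, the summed level was 17237 to 18697 CPM in control hearts. It was 22227, 21286 and 17775 CPM in transferred hearts, so transferred heart 3 fell inside the control range. Transferred hearts 1 and 2 stayed above every control heart on both scales.

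**Figure D1:**
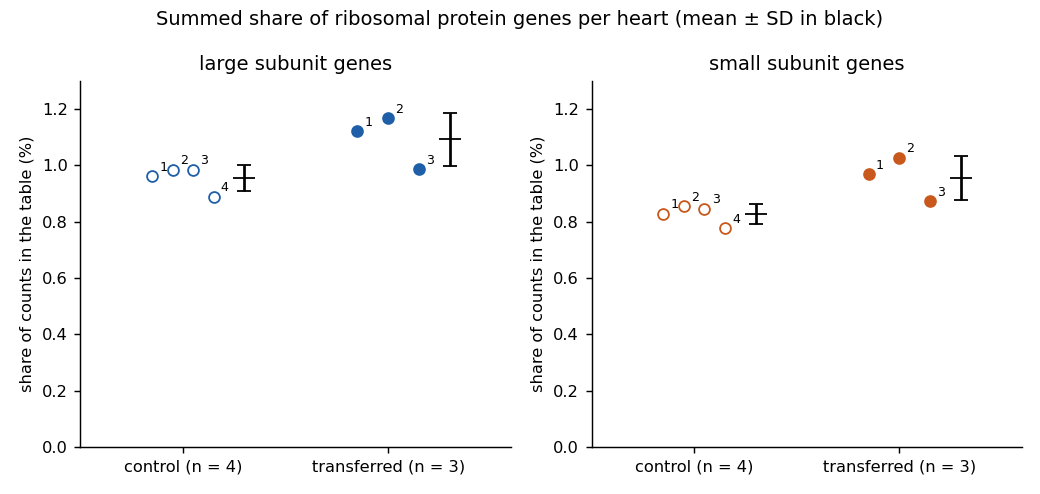
Share of the table's counts (percent) that fell on large subunit genes (left) and small subunit genes (right) in each heart; open points are control hearts, filled points transferred hearts, numbers name the hearts, and black marks are mean ± SD. Transferred hearts 1 and 2 lie above all control hearts, and transferred heart 3, at 0.988% and 0.873%, lies just above the highest control heart.

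The balance between the subunits moved far less than the sums. The ratio of large to small subunit counts was 1.16, 1.15, 1.16 and 1.14 in control hearts and 1.16, 1.14 and 1.13 in transferred hearts. The groups overlapped, with means of 1.16 ± 0.00894 (SD, n = 4) for control and 1.14 ± 0.0140 (SD, n = 3) for transferred hearts.

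Gene by gene, all 34 members were tested and all 34 had a positive log2 fold change, against 49.7% of the 7667 genes tested. None of the 34 passed the threshold of the edgeR quasi-likelihood test, where 0.235% of all tested genes did, and the lowest adjusted p among members was 0.151. At an unadjusted p under 0.05 there were 14 members, 6 large and 8 small, all with higher values in transferred hearts. This was the case for 7.17% of all tested genes. DESeq2 gave 1 member past the threshold, Rps21, and called 3.26% of all genes.

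The differences were small, and log2 fold changes below are given ± their standard error. The median log2 fold change was 0.16 over the large subunit members, a fold of 1.12, and 0.21 over the small subunit members, a fold of 1.15. The median over all tested genes was -0.002. Members ranged from 0.01 for Rpl28 to 0.35 for Rpl12. Genes with a mean of at least 100 CPM, a level that 33 of the 34 members exceed, had a median of -0.01 over 1749 genes, and 46.5% of them had a positive value.

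**Figure D2:**
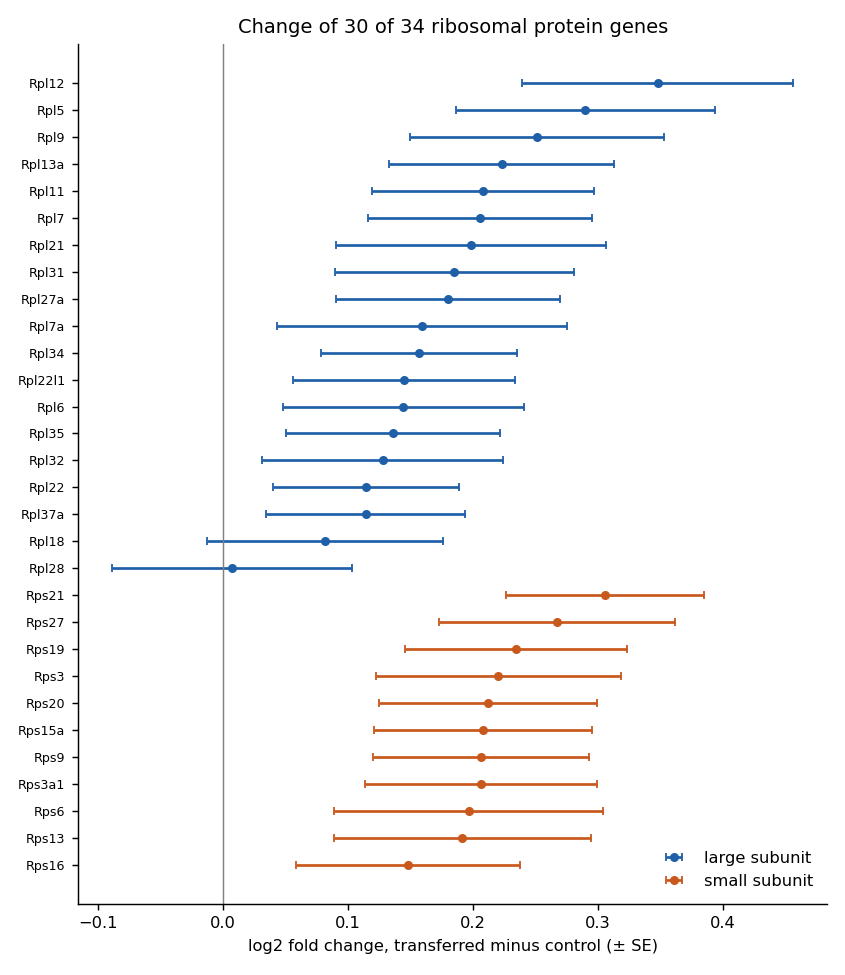
Log2 fold change (transferred minus control) of 30 of the 34 ribosomal protein genes, each with its standard error, large subunit in blue and small subunit in orange. All points lie above 0, from 0.01 (Rpl28) to 0.35 (Rpl12), and none passed the adjusted threshold.

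Which hearts carried these values was plain in the members one at a time. Transferred heart 1 exceeded every control heart in 33 of 34 members and had the highest level of all 7 hearts in 24. Transferred heart 2 also exceeded every control heart in 33 members and was the highest heart in 10. Transferred heart 3 did so in 5 members, was below every control heart in 9, and had a median deviation of 0.01 (log2) from the control means. The corresponding medians were 0.31 and 0.25 in transferred hearts 1 and 2.

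All 3 transferred hearts lay above all 4 control hearts in 5 members, where 6.0% of all tested genes did so. Rpl12, Rpl13a, Rps21 and Rps27 were among them. With column totals in place of TMM there were 17 such members, against 6.13% of all tested genes. Without transferred heart 3 there were 32, against 11.8%, and the members left were Rpl28 and Rps13.

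Single hearts also decided how many members reached an unadjusted p under 0.05 in the edgeR test. Against 14 members, 30 did so without transferred heart 3, with 8.28% of all genes on the same side, and Rpl12 then passed the threshold (edgeR adjusted p = 0.0438, with 1.8% of all genes called, against 0.0815 to 0.481 in the other alternatives). There were 3 without transferred heart 1, where 7.98% of all tested genes did so, and 2 without transferred heart 2, where 5.16% did. In both of these fits the members' share was near that of all genes. Leaving out control heart 1, 3 or 4 gave 7, 7 and 4 members, against 6.05%, 7.0% and 6.26% of all tested genes. Leaving out control heart 2 gave 10, and the share of all genes was not computed for that fit. Without transferred heart 1 the large subunit median was 0.10, and without transferred heart 3 it was 0.26. Positive values were kept by 31 to 34 members when single hearts were left out.

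**Figure D3:**
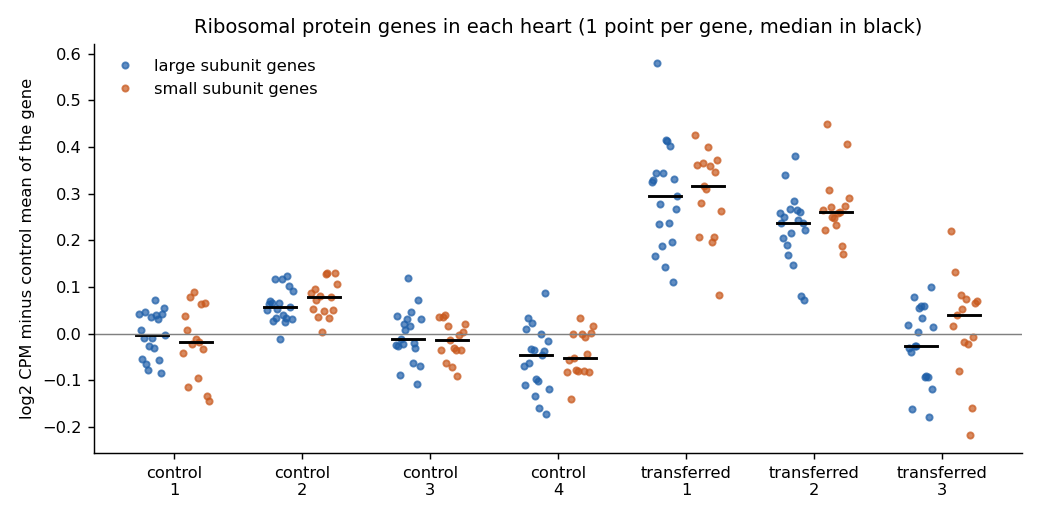
Log2 CPM of each ribosomal protein gene in each heart, minus the mean of that gene over the control hearts; each point is a gene, blue for the large and orange for the small subunit, and black bars are medians. Transferred hearts 1 and 2 sit above 0 for all 34 genes, and transferred heart 3 is spread on both sides of 0.

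Members varied little among control hearts and more among transferred hearts. The median SD of log2 CPM was 0.07 over members in control hearts and 0.16 in transferred hearts. Over all tested genes these medians were 0.16 and 0.18, and over the 1749 genes of at least 100 CPM they were 0.10 and 0.12.

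Among large subunit genes, Rpl12, which forms the base of the stalk where elongation factors bind, had the highest log2 fold change. Its level was 469, 463, 451 and 435 CPM in control hearts and 679.8, 576 and 480.2 CPM in transferred hearts. The groups did not overlap, although the lowest transferred heart was near the highest control heart. The log2 fold change was 0.35 ± 0.11 (edgeR adjusted p = 0.229). Rpl12 lies on chromosome 2, positions 32961712 to 32964045 of GRCm38.

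Rpl5, which joins Rpl11 and the smallest ribosomal RNA in a particle that can also bind the p53 regulator Mdm2, came next. Control hearts were at 717, 702, 706 and 611 CPM and transferred hearts at 909, 888 and 711 CPM. Transferred heart 3 fell among the control hearts. Its log2 fold change was 0.29 ± 0.10 (edgeR adjusted p = 0.292). Rpl5 lies on chromosome 5 (107900508 to 107909005).

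Rpl11, the partner of Rpl5, was at 458, 468, 458 and 408 CPM in control hearts and at 568, 519 and 465 CPM in transferred hearts, with a log2 fold change of 0.21 ± 0.09. Rpl9 (chromosome 5, 65388364 to 65391431) was at 751, 833, 776 and 715 CPM against 1024, 935 and 786 CPM, a log2 fold change of 0.25 ± 0.10. In both genes transferred heart 3 lay within the control range. Rpl13a, which outside the ribosome takes part in silencing inflammatory transcripts, was at 622, 628, 634 and 536 CPM against 759, 712 and 647 CPM, and its groups did not overlap.

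The lowest values of the large subunit belonged to Rpl28, Rpl18 and Rpl37a. Rpl28 (chromosome 7, 4792965 to 4794547) was at 484, 551, 476 and 545 CPM in control hearts and 555, 542 and 454 CPM in transferred hearts. The transferred range took in the whole control range, and the log2 fold change was 0.01 ± 0.10. Its sign turned with upper-quartile scaling and without control heart 1 or 3, transferred heart 1 or 2, or the hearts with a letter prefix. For Rpl18 (chromosome 7, 45715467 to 45720835) the values were 454, 447, 417 and 433 CPM against 527, 460.0 and 403 CPM, a log2 fold change of 0.08 ± 0.09. Rpl37a (chromosome 1, 72711260 to 72713813), a zinc-finger protein, was at 297, 324, 303 and 311 CPM against 346, 356 and 300.1 CPM, a log2 fold change of 0.11 ± 0.08. Adjusted p-values in the edgeR test were 0.985, 0.796 and 0.620 for these 3 genes.

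The other large subunit members, Rpl6, Rpl7a, Rpl21, Rpl27a, Rpl31, Rpl32, Rpl34 and Rpl35, had log2 fold changes between 0.13 and 0.20 at control means of 238 to 776 CPM. In none of these 8 did transferred heart 3 exceed the highest control heart.

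In the small subunit Rps21 had the lowest p of all members. Control hearts were at 291, 318, 307 and 283 CPM and transferred hearts at 403, 359.9 and 349.0 CPM. It was the member in which transferred heart 3 stood farthest above the control hearts. The log2 fold change was 0.31 ± 0.08 (edgeR adjusted p = 0.151, DESeq2 adjusted p = 0.0176, with 0.105 to 0.348 in the other alternatives). Rps21 lies on chromosome 2 (180257379 to 180258444), 4 of its 7 counts had a fractional part, and a miRNA gene overlaps it.

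Rps27 (chromosome 3, 90212667 to 90213648), a zinc-finger protein, was at 341, 362, 348 and 308 CPM against 392, 463 and 372 CPM. Its groups did not overlap, and transferred heart 2 was the highest, where transferred heart 1 led in most members. The log2 fold change was 0.27 ± 0.09 (edgeR adjusted p = 0.292). Rps19 (chromosome 7, 24884592 to 24889811), the gene first linked to Diamond-Blackfan anaemia, was at 338, 394, 353 and 361 CPM against 463, 432 and 380.4 CPM, a log2 fold change of 0.23 ± 0.09.

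Rps3, Rps13, Rps15a and Rps20 had log2 fold changes between 0.19 and 0.22 at control means of 395 to 709 CPM. In these genes transferred heart 3 did not exceed the highest control heart.

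Rps16 was among the small subunit members with the lowest values. Rps16 (chromosome 7, 28350689 to 28352698) was at 331, 367, 327 and 317 CPM against 384, 402 and 330.1 CPM. It differed by 0.15 ± 0.09 on the log2 scale (edgeR adjusted p = 0.556). Transferred heart 3 lay within the control range.

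Rps6 encodes the protein whose phosphorylation is widely read as a sign of mTOR activity. The counts measure its messenger only. It was at 744, 723, 674 and 679 CPM in control hearts and at 908, 850.1 and 667 CPM in transferred hearts, with a log2 fold change of 0.20 ± 0.11. Transferred heart 3 was the lowest of the 7 hearts.

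Levels between genes are compared per kilobase of combined exons, as control means. Among the highest were Rpl9 at 1060.3 CPM per kb, Rpl28 at 1037, Rps3a1 at 1032, Rps9 at 971 and Rpl7 at 927. From Rpl9 to Rps3a1 neighbouring genes differed by less than their spread over control hearts. The median over large subunit members was 519 and over small subunit members 591 CPM per kb. The lowest were Rpl22 at 113, Rpl22l1 at 94.2 and Rps15a at 79.8, but combined exons count every annotated exon and reach 5136 bases in Rps15a, so the value of such a gene is understated. Rps3a1 was at 997, 1009, 949 and 935 CPM against 1248, 1135 and 983 CPM, Rps9 at 995, 938, 927 and 885 against 1159, 1110.4 and 971, and Rpl7 at 891, 896, 851 and 825 against 1084, 1035 and 877. Each of these 3 abundant members had a log2 fold change of 0.21 ± 0.09, and transferred heart 3 lay within the control range in all of them.

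**Figure D4:**
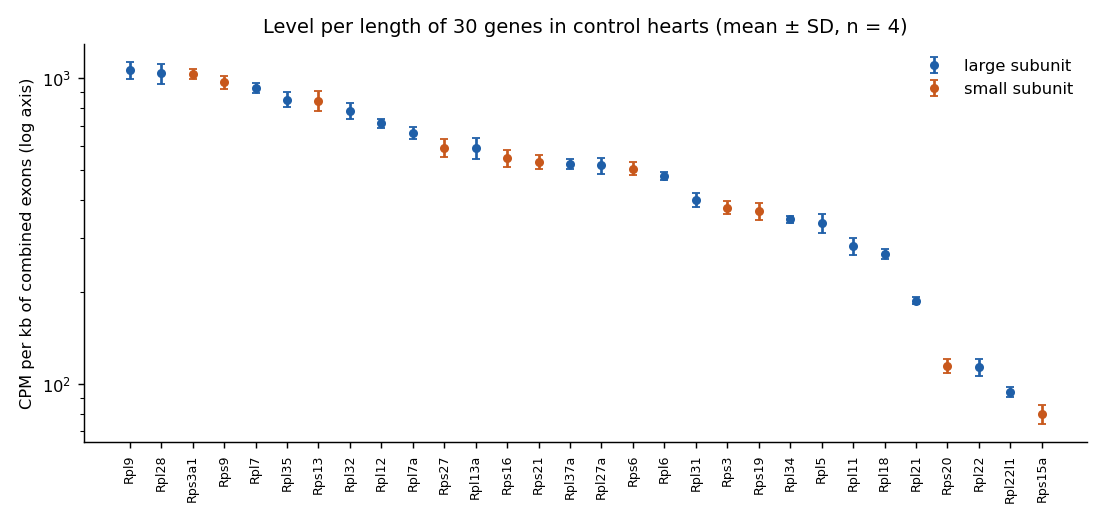
Level of 30 of the 34 ribosomal protein genes in control hearts, in CPM per kilobase of combined exons on a log axis, as mean ± SD over 4 hearts; blue is the large and orange the small subunit. Rpl9 (1060.3) and Rpl28 (1037) lie near the top, the median over all members is 539, and Rpl22l1 (94.2) and Rps15a (79.8) are the lowest.

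Rpl22 and Rpl22l1 are the paralogous pair among the members. The proteins can stand in for each other in the ribosome, and Rpl22 is known to hold down Rpl22l1. Rpl22 (chromosome 4, 152324436 to 152334082) was at 281, 280.2, 307 and 264 CPM in control hearts and at 312, 313 and 294 CPM in transferred hearts, a log2 fold change of 0.11 ± 0.07. Rpl22l1 (chromosome 3, 28805508 to 28807424) was at 49.6, 53.6, 53.1 and 53.3 CPM against 63.5, 58.8 and 51.4 CPM, a log2 fold change of 0.14 ± 0.09. Per kilobase, control hearts had a ratio of Rpl22l1 to Rpl22 of 0.834 ± 0.0596 (SD, n = 4), and transferred hearts one of 0.848 ± 0.0652 (SD, n = 3). The ranges overlapped, and the difference was smaller than the spread between hearts. Adjusted p-values in the edgeR test were 0.588 for Rpl22 and 0.563 for Rpl22l1.

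Many of these genes carry small nucleolar RNA genes, guides of ribosomal RNA modification, within their bounds. On their own strand, 15 of the 34 members (44.1%) held at least 1 such gene, 29 in all, against 1.34% of tested protein-coding genes. Rpl7a and Rpl13a held 4 each. The median log2 fold change was 0.20 in hosts and 0.20 in the other members. Fractional counts were present in 13 of the 15 hosts and in 4 of the 19 other members. The embedded genes themselves received 43.0 to 141 counts per heart.

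Ribosomal protein genes have many processed pseudogenes, and a read may match a gene and its copy. The table held 103 such pseudogenes, 83 of them with counts. They took 0.383%, 0.404%, 0.396% and 0.358% of the counts in control hearts and 0.446%, 0.446% and 0.404% in transferred hearts, and transferred heart 3 lay within the control range. Of the 63 pseudogenes tested, 31 had a positive log2 fold change and 0 passed the threshold, against 49.7% and 0.235% of all tested genes, so these counts were near the background. How the authors' counting divided reads between a gene and its copies was not tested, so the value of a single member is uncertain to that extent. For the members with no fractional value in any heart, 17 of 34, the medians were 0.15 for the large and 0.21 for the small subunit. Fractional values were present in 15 of 20 members that overlap another gene and in 2 of 14 that do not. Of the values above 0, 2.12% were fractional in the pseudogenes and 9.40% over all genes. A lack of fractional values therefore does not show that a member shared no reads with its copies.

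The other cytosolic ribosomal protein genes in the table, whose symbols the rule does not cover, encode stalk proteins. Rplp0 (chromosome 5, 115559467 to 115563729) was at 1948, 1970, 1716 and 1872 CPM in control hearts and 2589, 2192 and 1784 CPM in transferred hearts. Its log2 fold change was 0.22 ± 0.12. Rplp2 (chromosome 7, 141447651 to 141451359) was at 529, 592, 539 and 559 CPM against 692, 597 and 593 CPM, a log2 fold change of 0.18 ± 0.08. Transferred heart 1 was the highest in both, as in most members.

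Other gene groups of protein synthesis are given for comparison by their counts. Mitochondrial ribosomal protein genes, which serve the separate ribosome of the mitochondrion, had a positive value in 10 of 36 and a median log2 fold change of -0.06. Mrps12 was at 102, 93.0, 87.4 and 98.7 CPM in control hearts and 82.2, 75.2 and 82.4 CPM in transferred hearts (log2 fold change -0.25, edgeR adjusted p = 0.232), and Mrpl23 had a log2 fold change of 0.18. Genes named as translation initiation or elongation factors, or as enzymes acting on them, were positive in 19 of 30, with a median of 0.03. The smallest p-values there were those of Eif4e2, a cap-binding protein, with -0.17, and Eef1akmt2, a methyltransferase of an elongation factor, with 0.35.

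Genes of ribosome biogenesis, which process ribosomal RNA and assemble the subunits, were positive in 20 of 46, with a median of -0.01. Exosc10, an exosome nuclease, had a log2 fold change of 0.21, and Rrs1, an assembly factor of the large subunit, of -0.24. Of genes of the mTOR pathway and control of translation, 4 of 14 were positive, with a median of -0.04. Rheb, the GTPase that activates mTOR, was at 192, 181, 180.4 and 172 CPM against 202, 193 and 203 CPM, and the groups did not overlap. Sesn2, which restrains mTOR when amino acids are low, was at 19.0 CPM in transferred heart 1 and at 8.07 to 11.9 CPM in the other 6 hearts. In none of these lists did a gene pass the edgeR threshold, which 0.235% of all tested genes passed. With an unadjusted p under 0.05 there were 4 genes higher and 6 lower over the 125 distinct genes tested in the 4 larger lists, where 7.17% of all tested genes were higher and 5.27% lower.

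**Figure D5:**
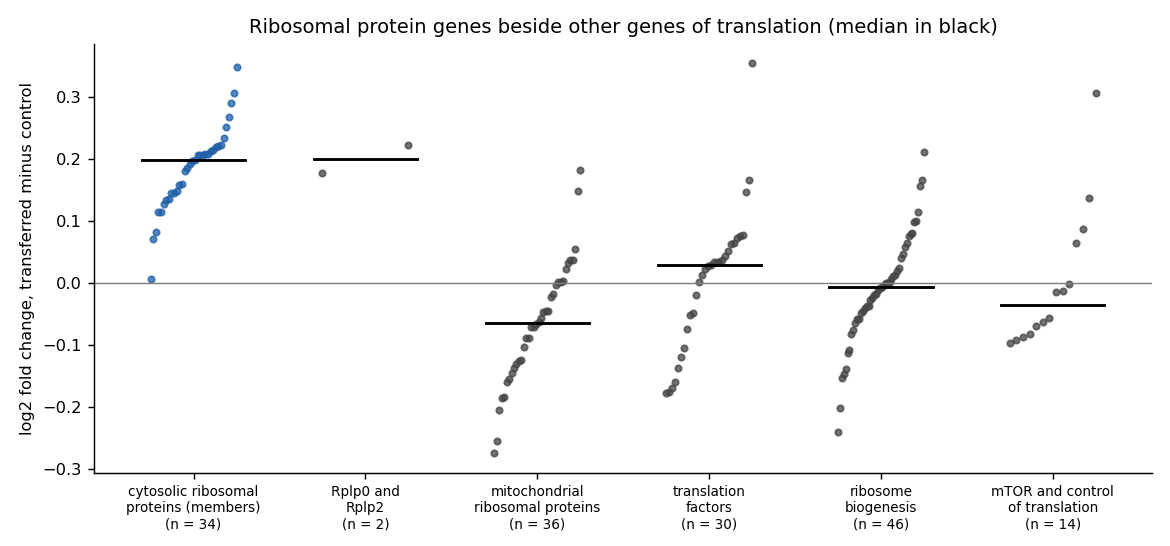
Log2 fold change (transferred minus control) of the 34 ribosomal protein genes (blue) beside Rplp0 and Rplp2, mitochondrial ribosomal protein genes, translation factors, ribosome biogenesis genes and mTOR genes (grey); each point is a gene and black bars are medians. The cytosolic members lie above 0 with a median of 0.20, and the 4 larger lists have medians between -0.06 and 0.03.

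Cell type markers were set beside these values. Libraries held 16402194 to 25190580 counts in the part of the table analysed, with at least 844 counts for every member in every heart. Cardiomyocyte markers such as Tnnt2 and Ttn were high in all hearts, with 52553 to 57207 summed CPM in control and 54824 to 58509 in transferred hearts, so the labelled tissue showed its defining genes. Macrophage markers, 9 of 12 in the table, were higher in all transferred hearts. They summed to 484 to 729 CPM in control hearts and to 1206, 1271 and 840.3 CPM in transferred hearts, and 9 of 9 had a positive log2 fold change, against 49.7% of all tested genes. C1qb and Mrc1 passed the edgeR threshold, where 0.235% of all tested genes did. No gene of the table passed it with limma-voom, with the identifier prefix as covariate, without the hearts with a letter prefix, or without control heart 1, 2 or 4 or transferred heart 2. Erythroid markers, 2 of 5 in the table, summed to 3982, 6492, 14679 and 4082 CPM in control hearts and to 13106, 2736 and 3250.3 CPM in transferred hearts, of which hearts 2 and 3 lay below every control heart. Neutrophil markers, 5 of 5 with a positive log2 fold change, summed to 11.8 to 37.6 CPM in control hearts and to 21.1, 301 and 51.1 CPM in transferred hearts, of which heart 1 lay within the control range. T and B lymphocyte markers summed to 30.04 to 38.3 CPM in control and 28.5 to 36.1 CPM in transferred hearts, and 1 of the 3 tested had a positive log2 fold change. All of these markers are mouse genes, so they are no measure of the transferred human T cells. Whether reads from human cells were counted on mouse genes, the members included, was not tested. The part of any of these cell types in the ribosomal protein values was not tested, and in bulk tissue more cells of a type cannot be told apart from more RNA per cell.

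The labels name no batch, but the identifier of 1 animal in each group, control heart 1 and transferred heart 1, starts with letters. Among the other 5 hearts, 33 of 34 members had a positive log2 fold change, with medians of 0.12 for the large and 0.14 for the small subunit, and 2 were higher at an unadjusted p under 0.05, where 7.16% of all tested genes were. The pair with letters has 1 heart a group and gives no test. The median deviation over members was -0.01 in control heart 1 and 0.31 in transferred heart 1. With the prefix as a covariate the medians were 0.16 and 0.20, and 11 members were higher at an unadjusted p under 0.05, where 7.06% of all tested genes were. No gene of the whole table, members included, passed the edgeR threshold in either of these fits.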

How the data were processed

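The authors deposited 1 table of estimated counts per gene, not normalized. Per the submitters' processing notes, bcl2fastq 2.20.0.422, cutadapt 2.5, STAR 2.7.2b, featureCounts 1.6.4 and DESeq2 1.22.2 were used with build GRCm38.p6, and the notes give no settings. The table ended within chromosome 8, so genes beyond position 25129815 there, on later chromosomes, on the sex chromosomes and in the mitochondrial genome are not analysed here. Scaling factors and column totals come from the part held, which had 20343 complete rows and 1 unfinished row that was left out. All 20343 identifiers matched the RefSeq gene table of GRCm38.p6.

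Of the deposited counts, 4.63% of values had a fractional part, and counts were rounded before testing. The main test was the edgeR 4.0.16 quasi-likelihood test (R 4.3.3, robust estimation, filterByExpr, TMM scaling), fitted on the whole table, with Benjamini-Hochberg adjustment over 7667 genes and a threshold of 0.05. CPM values are TMM-scaled unless a sentence says otherwise. Fold changes are on the log2 scale, computed here from the deposited counts, and their standard errors come from the F statistic. The test was also run on simulated counts, in which the changes were larger than those of the members and genes varied independently. That run therefore does not bear on small changes shared by many members. Same-group libraries differed by chi-square values of 17.4 to 77.2 per degree of freedom, so none looked like a repeat. Replicate numbers follow accession order and pair no samples.

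Members and gene lists were chosen with earlier results of these data known. Full values are given, in each subunit, for the 3 members of highest and the 3 of lowest log2 fold change and the 3 of highest level per length, and for the pair Rpl22 and Rpl22l1. From each other list the 2 genes with the smallest p are named. Rpl13a, Rps6 and Rpl11 are named outside this rule. Some items that the rule names are not reported here, and counts, sums and medians include them. Alternatives were other scalings, filters and tests, a gene length offset, the form of the animals' identifiers, left-out hearts and other sums. Promoter sequences are RefSeq's, on GRCm38.p6.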

Additional observations from a re-analysis of the deposited data

Results flagged for a closer look

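In 5 of 37 values checked, 1 control heart stood apart from the other 3 by Dixon's test, where 1.85 would be expected. Members of one heart are not independent, so the number flagged can vary more widely around 1.85 than over independent values. Control heart 4, the library with the fewest counts, was low in 3 of the 5 flagged values. Its log2 CPM was 8.67 for Rpl11, against 8.84 to 8.87 in the other control hearts. It was 9.26 for Rpl5, against 9.45 to 9.49, and 9.07 for Rpl13a, against 9.28 to 9.31. Control heart 1 was low for Rpl22l1, at 5.63 against 5.73 to 5.74. Control heart 2 was high for Rpl32, at 8.74 against 8.56 to 8.59.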

How the results depend on the processing

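No paired analysis was possible because replicate numbers only follow accession order and no label pairs control with transferred hearts. Over 20 alternative fits, 31 to 34 members kept a positive log2 fold change. Against 0 members past the threshold, DESeq2 gave 1 (Rps21) and the fits leaving out 1 heart gave 0 to 1 (Rpl12 without transferred heart 3). Members above every control heart in all transferred hearts were 5, or 17 with column-total scaling and 32 without transferred heart 3. Against 18 genes of the whole table past the threshold, column-total scaling gave 35, no filter beyond 1 count 81, DESeq2 250, limma-voom 0, the identifier prefix as covariate 0, leaving out the hearts with a letter prefix 0 and leaving out single hearts 0 to 140. In all alternatives the medians moved by less than the SD between hearts, 0.113 for the large and 0.102 for the small subunit. That SD includes transferred heart 3, which lay apart from the other transferred hearts and so widened it. Leaving out single hearts gave medians of 0.10 to 0.26 for the large and 0.15 to 0.29 for the small subunit. The gene length offset gave 0.22 and 0.26. Restricted to members with no fractional value, the difference in summed share fell from 0.138 to 0.0583 percentage points for the large and from 0.12995 to 0.0696 for the small subunit, since fewer genes were summed. The cause of the other differences was not tested. The medians without robust estimation and the counts of positive members, of members at an unadjusted p under 0.05 and of members above every control heart, and the counts for the other gene lists, were added after seeing the data. Every member had at least 844 counts in every heart, and same-group libraries differed by at least 17.4 in chi-square per degree of freedom over all genes.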
